A study of Mus musculus with 44 samples.

Results

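The genes described here carry signals from Toll-like receptors (TLRs), sensors of microbial products, to the transcription factor NF-kB. The set names 47 genes by symbol, and a gene was measured where at least 1 probe set of the array is annotated to that single symbol. This held for 43 genes with 91 probe sets, out of 18193 genes so measured on the whole array. Irak4, Traf3, Chuk and Nfkb1 were not analysed here. Il12b lay below the filter on dim probe sets, which left 42 tested members out of 11969 tested genes. By role these were 8 receptors and co-receptors, 3 adaptors, 3 IRAK kinases, 3 TRAF proteins, 6 kinases and kinase partners, 4 NF-kB subunits, 4 proteins of the IkB family, 5 feedback and survival genes and 6 target genes. RNA was read on Affymetrix Mouse430_2 arrays, and all 44 samples were of CH12.LX, an established B cell line of the mouse. The 11 groups hold 4 samples each. The untreated group was harvested at 0 h. Vehicle cells received lipopolysaccharide (LPS) of Salmonella typhosa and 0.01% dimethyl sulfoxide (DMSO), and were harvested at 8, 12, 24, 36 or 48 h. TCDD cells received LPS and TCDD (2,3,7,8-tetrachlorodibenzo-p-dioxin, a ligand of the aryl hydrocarbon receptor, AhR) at 10 nM, and were harvested at the same 5 times. LPS is thus shared by the vehicle and TCDD groups, and no group received TCDD without LPS. All samples come from 1 cell line, and the 4 replicates of a group were run on separate days, here called days 1 to 4 by replicate number. The p-values therefore describe how far cultures of 1 line varied from day to day.

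LPS is sensed by Tlr4 together with its co-receptor Ly96, and in B cells also through Cd180 and its partner Ly86. The adaptors Myd88, Tirap and Ticam1 pass the signal to IRAK kinases, TRAF proteins and the Map3k7 and IKK kinase complexes, which mark the inhibitory IkB proteins for destruction and so free the NF-kB dimers. NF-kB then drives inflammatory and survival genes, and also its own inhibitors such as Nfkbia, Tnfaip3 and Tnip1, which close a feedback loop. AhR is a ligand-activated transcription factor that binds DNA with a GCGTG core and induces enzymes such as Cyp1a1.

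The windows of 250 bases before the start sites of the members in the RefSeq table (GRCm38.p6) were searched on both strands for the kB consensus, the DNA sequence that NF-kB dimers bind. It was found in 13 of 56 member windows (23.2%), against 7.25% of all 32851 windows in the table. By gene these were 10 of the 40 members in the table (25%), against 8.23% of all 27025 genes. The motif GCGTG, searched on both strands of the same windows, was found in 39.3% of member windows and in 28.2% of all windows. Members without an entry were Tlr4, Tlr7, Ly96, Ikbkb, Nfkb1, Relb and Cd83. A match is a description of the sequence and not a bound site. The stretches below hold kB matches (in capitals) of 6 members that passed a test in these data, among them 4 inhibitors of the pathway. Called members with a match before the most upstream start site were ordered by the size of their vehicle difference at 8 h, and the first 6 are shown. All run from 5′ to 3′ on the strand of the gene and end before its start site.
Tnfaip3, chr10:19015411-19015555, minus strand: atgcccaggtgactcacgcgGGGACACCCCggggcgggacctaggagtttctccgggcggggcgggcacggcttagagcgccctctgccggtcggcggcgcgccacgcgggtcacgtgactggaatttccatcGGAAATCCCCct
Tlr2, chr3:83841751-83841801, minus strand: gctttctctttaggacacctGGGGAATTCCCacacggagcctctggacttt
Nfkbia, chr12:55492648-55492696, minus strand: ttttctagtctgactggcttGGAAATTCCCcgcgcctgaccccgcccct
Nfkbie, chr17:45555574-45555623, plus strand: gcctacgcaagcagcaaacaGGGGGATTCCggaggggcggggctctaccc
Tnip1, chr11:54962967-54963018, minus strand: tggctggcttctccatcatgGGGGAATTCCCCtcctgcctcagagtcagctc
Nfkb2, chr19:46304678-46304736, plus strand: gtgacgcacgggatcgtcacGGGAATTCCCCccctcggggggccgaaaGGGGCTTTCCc
Where capitals run longer than the consensus, matches overlap: the Tnip1 stretch holds 3, the Tlr2 stretch 2 and the Nfkb2 stretch 3 in all. Further matches of Nfkb2, before other start sites, are not printed, nor are those of Rel and Map3k7, which were also called but changed less at 8 h. The window of Ptgs2, the member with the largest TCDD difference, holds no kB match and 1 GCGTG (in capitals). It is shown because of that difference, so it was chosen after its values were seen.
Ptgs2, chr1:150099913-150099957, plus strand: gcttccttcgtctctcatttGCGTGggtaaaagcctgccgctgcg
The windows of Cflar, Irak3, Traf1 and Icam1, whose values are given below, hold no kB match, and those of Cflar and Irak3 hold no GCGTG either.

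Deposited array medians ran from 45.0 to 98.9 signal units, and replicate arrays of a group correlated with r from 0.949 to 0.980. A set of 4 arrays stood apart in technical measures: replicates 3 and 4 of the untreated cells, replicate 2 of DMSO at 48 h and replicate 4 of DMSO at 12 h. They hold the highest median signals (98.9 and 87.6) or the highest log2 ratios of 3′ to 5′ control probe sets (3.04 and 2.85, against a median of 1.18). A call given below that was lost without them is named as such. Of the B cell markers, 7 of 7 measured genes passed the filter, with Cd79b, Ms4a1 and Blnk among them. Of the other cell types, 3 of 5 T cell, 4 of 5 dendritic cell and 3 of 5 fibroblast markers passed it, with summed signals from 431 to 882, 597 to 1357 and 135 to 359. The exposure marker Cyp1a1 was higher in TCDD than in vehicle cells by 5.24 over the 5 times (higher in 20 of 20 same-day pairs). It was also higher in vehicle than in untreated cells, by 2.15 at 8 h and by 2.40 at 12 h. Its untreated mean (6.01) and its lowest group mean (5.95, in vehicle cells) lie below the filter level of 6.21. The Cyp1a1 differences from untreated and from vehicle cells are therefore a description. All levels and differences here are on the scale of log2(signal + 16), on which a change of 1 is close to a doubling for bright probe sets and stands for a larger fold of signal for dim ones. Errors are standard errors from limma, and a difference is called where its adjusted p lies below 0.05. A gene is described by its brightest probe set, and other probe sets of the gene are given where they differ.

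The first comparison asks how the pathway differed in LPS-activated vehicle cells from untreated cells. Untreated cells were harvested at 0 h only, so LPS, vehicle and time in culture cannot be told apart, and the 5 comparisons share the same 4 untreated arrays. At 8 h, 20 of 42 members were called, where 23.3% of all genes tested were. Of these 12 were higher (10.6% of all genes) and 8 lower (12.7%), and without day 3 only 2 were lower. At 12 h 20 were called (23.5% of all genes), 9 higher (10.3%) and 11 lower (13.2%). At 24 h 17 were called (18.6%), 9 higher (8.74%) and 8 lower (9.88%). The counts grew later, to 24 at 36 h (29.7% of all genes), 15 higher (14.6%) and 9 lower (15.1%). At 48 h 29 were called (42.4% of all genes), 18 higher (22.7%) and 11 lower (19.8%). The median difference of the members was 0.11 at 8 h and 0.36 at 48 h, against -0.02 and 0.02 over all genes. In vehicle cells 6 members (Traf1, Nfkbia, Bcl3, Cflar, Ptgs2 and Il1rn) were higher at all 5 times, a pattern of 2.50% of all genes. Of these, Ptgs2 and Il1rn had untreated means below the level of the filter on dim probe sets and passed it only through other groups. Another 3 members (Cd180, Ly86 and Cd83) were lower at all 5 times, a pattern of 3.44% of all genes. No time gave a call for Tlr9, Ly96, Irak1, Traf6, Nfkb2, Nfkbib, Tnip1 or Il1b on the brightest probe set. With the day as a block, Ly96 (12 h, adjusted p = 0.0176), Nfkbib (8 h, 0.0385, and 12 h, 0.0424), Tnip1 (8 h, 0.0186) and Nfkb2 (48 h, 0.0211) were called higher. The group means of a member spanned a median of 1.30 over the 11 groups, against 0.75 for all genes tested. The summed signal of the B cell markers ran from 39714 to 44973 in untreated arrays and from 23115 to 32792 in vehicle arrays, without overlap. Against the untreated arrays, other sums also lay apart at single times: that of T cell markers was higher at 8 h (722 to 882 against 547 to 691) and lower at 24 h (431 to 534). Most of this sum came from Cd8a, with group means from 8.62 to 9.38. No other T cell marker exceeded a group mean of 6.58, and Cd3d and Cd4 lay below the filter. Dendritic cell markers were higher at 48 h (1010 to 1300 against 740 to 955), and macrophage and myeloid markers were lower at 24 h (1333 to 1524 against 1754 to 2258). The part of these markers in the differences was not tested. In bulk RNA, fewer cells of a type and less RNA per cell cannot be told apart.

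**Figure D1:**
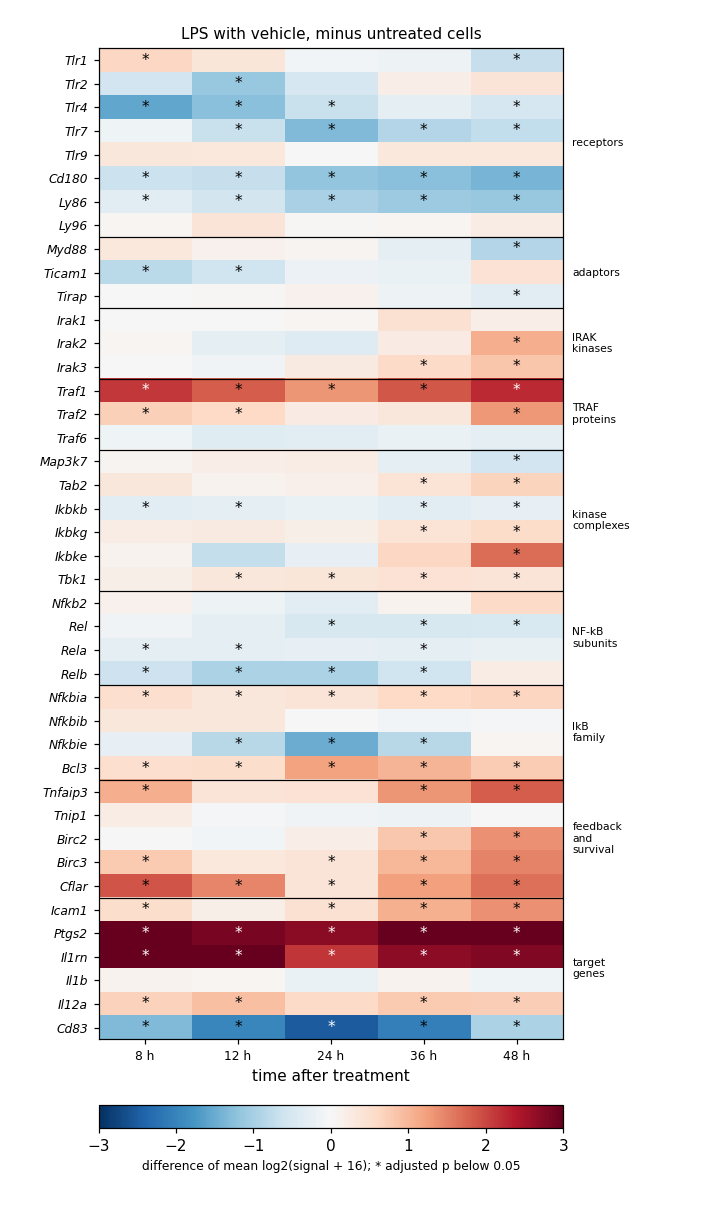
Difference of vehicle minus untreated means for the 42 tested members (rows, ordered by role) at 5 times (columns, in h), on the scale of log2(signal + 16), with 4 arrays per group. Colour runs from blue (lower) to red (higher) and stops at 3 in either direction, and a star marks an adjusted p below 0.05. Tlr4, Tlr7, Cd180 and Ly86 are blue at most times, while Traf1, Cflar, Ptgs2 and Il1rn are red at all 5 times.

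Of 8 receptor genes, 1 was higher (10.6% of all genes) and 3 were lower (12.7%) at 8 h, and 0 were higher (22.7%) and 5 lower (19.8%) at 48 h. Tlr4, the LPS receptor itself, stood at 8.98, 8.56, 8.50 and 8.95 in untreated cells (in the order of days 1 to 4) and at 7.27, 7.33, 7.09 and 7.05 in vehicle cells at 8 h. All 4 vehicle arrays lay below all untreated ones. The fall was by 1.56 ± 0.14 (adjusted p = 1.47e-10), or 2.96-fold, and another Tlr4 probe set fell by 1.69. At 36 h Tlr4 differed by -0.26 (adjusted p = 0.190), and at 48 h it was again lower, by -0.51 ± 0.14 (adjusted p = 0.00436). That last call was lost without day 1 (adjusted p = 0.0858) and without the 4 arrays that stood apart (0.0530), and the other probe set differed by 0.07. Cd180, a TLR homologue of B cells, fell from 9.29, 9.43, 9.79 and 10.25 in untreated cells to 7.86, 8.48, 8.39 and 8.40 at 48 h. The groups did not overlap, with a difference of -1.40 ± 0.20 (adjusted p = 6.59e-07). Its call at 8 h (-0.64) was lost without day 2 (adjusted p = 0.0739), without day 3 (0.114) and without the 4 arrays that stood apart (0.316), and at 12 h (-0.69) without day 2 (0.0801) and without day 3 (0.137). Ly86, the secreted partner of Cd180, had fallen by 0.34 ± 0.11 at 8 h, a call lost without any 1 day (adjusted p from 0.0559 to 0.137) or the 4 arrays (0.192). By 48 h it had fallen by 1.14 ± 0.11 (adjusted p = 3.66e-10), from between 13.06 and 13.47 to between 11.79 and 12.26.

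Tlr7, an endosomal receptor for single-stranded RNA, reached its lowest vehicle level at 24 h. It stood at 9.48, 9.12, 9.55 and 9.67 in untreated cells and at 8.20, 7.94, 8.28 and 8.13 in vehicle cells at 24 h. All 4 vehicle arrays were lower, by -1.31 ± 0.13 (adjusted p = 1.47e-09), and 2 other probe sets fell by 0.99 and 1.52. At 48 h the difference was -0.73 (adjusted p = 2.93e-05), while the other probe sets differed by -0.24 and -0.43 without a call. Tlr2, which senses bacterial lipoproteins, was called only at 12 h, at -1.13 ± 0.23 (adjusted p = 0.000258). DMSO 12 h replicate 4, one of the arrays that stood apart, was the lowest there, at 6.28 against 8.20, 7.67 and 7.79 for the other days. At 8 h Tlr2 differed by -0.58 (adjusted p = 0.0664), which was called with the day as a block (adjusted p = 0.0208). Tlr1, a partner of Tlr2, was the 1 member called in both directions, at 0.63 ± 0.17 (adjusted p = 0.00598) at 8 h and at -0.70 ± 0.17 (adjusted p = 0.00116) at 48 h. The 8 h call was lost without day 1 (adjusted p = 0.0819) or day 4 (0.0974).

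Among the adaptors, Myd88, which serves nearly all TLRs, stood at 10.95, 11.02, 11.10 and 11.10 in untreated cells and at 10.18, 10.17, 10.16 and 10.10 at 48 h. The 4 arrays at 48 h lay close together and below all untreated arrays, at -0.89 ± 0.11 (adjusted p = 5.90e-08). Ticam1, the adaptor of the interferon branch, was lower at 8 h by -0.81 ± 0.20 (adjusted p = 0.00246), a call lost without day 3 (0.0668). At 48 h it differed by 0.44 (adjusted p = 0.0762, and 0.0361 with the day as a block). Tirap, the bridging adaptor of Myd88, was lower at 48 h by -0.34 ± 0.10 (adjusted p = 0.00884), a call lost without day 2 (0.0687).

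Of the IRAK kinases, none was called at 8, 12 or 24 h, where 23.3%, 23.5% and 18.6% of all genes were. With the day as a block Irak2 was called at 24 h (-0.39, adjusted p = 0.0493). Irak2, a kinase of the receptor complex, stood at 9.62, 10.14, 9.72 and 10.24 in untreated cells and at 11.02, 10.97, 11.23 and 10.83 at 48 h. All later arrays were higher, with a rise by 1.09 ± 0.16 (adjusted p = 1.19e-06). Irak3, an IRAK that restrains TLR signalling, rose by 0.58 ± 0.14 at 36 h (adjusted p = 0.00191, and 0.0531 without day 3) and by 0.83 ± 0.14 at 48 h (adjusted p = 9.29e-06). Among the TRAF proteins, Traf1, an NF-kB target that binds Traf2, rose from 9.12, 9.14, 9.46 and 8.87 to 11.36, 11.37, 11.16 and 11.18 at 8 h. All vehicle arrays were higher at each of the 5 times. The rise was by 2.12 ± 0.16 at 8 h (adjusted p = 2.43e-12), 1.32 at 24 h and 2.24 at 48 h. Traf2, an adaptor of the tumour necrosis factor receptors, was higher by 0.71 ± 0.13 at 8 h (adjusted p = 0.000117) and by 1.30 ± 0.13 at 48 h (adjusted p = 6.82e-10). Traf6, the TRAF of the Myd88 route, gave no call on its brightest probe set (-0.13 at 8 h), while another probe set was higher by 1.12 at 8 h (adjusted p = 0.00435).

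In the kinase complexes 1 of 6 genes was called at 8 h (23.3% of all genes). At 48 h 6 of 6 were (42.4% of all genes), 4 higher (22.7%) and 2 lower (19.8%). Ikbke, an IKK-related kinase, rose from 8.16, 8.14, 8.62 and 7.87 to 9.76, 10.21, 9.63 and 9.89 at 48 h. This rise was by 1.68 ± 0.27 (adjusted p = 5.14e-06). At 12 h Ikbke differed by -0.72 (adjusted p = 0.0542, and 0.0314 with the day as a block), with DMSO 12 h replicate 4 at 6.01 and the other days between 7.58 and 8.33. Tbk1, its close relative, was higher at 12, 24, 36 and 48 h by 0.34 to 0.44. Map3k7, the kinase that activates the IKK complex, fell by 0.56 ± 0.12 at 48 h (adjusted p = 0.000234), and 3 other probe sets of it were also called lower there (-0.65 to -1.08). Tab2, a partner of Map3k7, rose by 0.66 ± 0.16 at 48 h (adjusted p = 0.00101), a call lost without the 4 arrays that stood apart (0.106). Ikbkb, the catalytic IKK subunit, was lower on its brightest probe set at 8, 12, 36 and 48 h, by between -0.24 and -0.33, while the mean of its probe sets differed by 0.02 at 12 h (adjusted p = 0.957) and 0.01 at 36 h (0.981). Without day 3 or day 4 the Ikbkb calls at 8, 12 and 48 h were lost (adjusted p from 0.0501 to 0.207), and that at 12 h also without the 4 arrays that stood apart (0.132). For Ikbkg, the regulatory IKK subunit, probe sets disagreed at 36 h. The brightest was higher by 0.41 (adjusted p = 0.0116), a call lost without day 3 (0.0966), day 4 (0.0840) or the 4 arrays that stood apart (0.498), and 2 others were higher by 0.52 and 0.75. Another Ikbkg probe set was lower by -0.32 (adjusted p = 0.0398).

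Of the 4 tested NF-kB subunits, 0 were called higher at any time, though Nfkb2 at 48 h was with the day as a block (adjusted p = 0.0211). Over all genes, 25.9% were called higher at some time and never lower, and 6.42% higher at some times and lower at others. Relb, a subunit of the non-canonical route, stood at 8.27, 8.86, 9.32 and 8.92 in untreated cells and at 7.73, 7.96, 7.85 and 8.06 at 12 h. The difference was -0.95 ± 0.19 (adjusted p = 0.000289), and at 48 h it was 0.22 (adjusted p = 0.391). Its calls at 8 h (-0.63) and 36 h (-0.60) were lost without the 4 arrays that stood apart (adjusted p = 0.223 and 0.236) and without some single days (days 2, 3 or 4 at 8 h, with adjusted p from 0.0527 to 0.0759, and days 3 or 4 at 36 h, with 0.0985 and 0.163). Rel, the subunit prominent in lymphocytes, was lower by -0.49, -0.47 and -0.45 at 24, 36 and 48 h (adjusted p = 0.00189, 0.00167 and 0.00137). Rela, the main transactivating subunit, differed by between -0.22 and -0.28 at the 5 times. It was called at 8, 12 and 36 h. The 8 and 36 h calls were lost without any 1 day (adjusted p from 0.0679 to 0.230 and from 0.0606 to 0.244), that at 12 h without day 2 (0.0586), day 3 (0.298) or day 4 (0.0569), and all 3 without the 4 arrays that stood apart (0.213, 0.104 and 0.179).

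The IkB family divided by gene. Nfkbia, the classical inhibitor whose resynthesis ends NF-kB activity, was higher at all 5 times. It stood at 14.23, 14.27, 13.88 and 14.31 in untreated cells and at 14.75, 14.74, 14.82 and 14.96 at 48 h. The rise was by 0.64 ± 0.08 at 48 h (adjusted p = 9.45e-08) on this bright probe set and by 1.68 on another, which had risen by 1.17 at 8 h. With the values as deposited, without quantile normalization, the calls at 8, 12 and 24 h on the brightest probe set were lost (adjusted p = 0.0780, 0.136 and 0.111). With only the arrays compared these 3 calls were lost as well (adjusted p = 0.0570, 0.216 and 0.117). The calls at 12 and 24 h were lost without day 3 (adjusted p = 0.136 and 0.0836), when untreated replicate 3 was the lowest array, and that at 12 h also without the 4 arrays that stood apart (0.0943). Bcl3, an IkB protein that works in the nucleus, rose from 9.38, 9.80, 9.68 and 9.79 to 10.80, 11.01, 10.81 and 10.85 at 24 h. This rise was by 1.21 ± 0.11 (adjusted p = 1.12e-10), and at 48 h the difference was 0.77. Nfkbie, an inhibitor prominent in B cells, went the other way, from 12.07, 12.12, 12.16 and 11.93 to 10.96, 10.50, 10.50 and 10.41 at 24 h. It was lower by -1.48 ± 0.15 (adjusted p = 1.08e-09) at 24 h and differed by 0.06 (adjusted p = 0.795) at 48 h.

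Feedback and survival genes rose, in 3 of 5 cases at 8 h (10.6% of all genes) and in 4 of 5 at 48 h (22.7%). Tnfaip3, an enzyme that edits ubiquitin chains and dampens NF-kB signalling, stood at 10.53, 10.79, 9.21 and 10.16 in untreated cells and at 11.24, 11.25, 11.35 and 11.23 at 8 h. It was higher in 4 of 4 same-day pairs, by 1.10 ± 0.20 (adjusted p = 6.72e-05), and by 1.81 ± 0.20 at 48 h (adjusted p = 2.32e-09). Between these times, at 12 and 24 h, it differed by 0.38 and 0.44 without a call (the latter called with the day as a block, adjusted p = 0.0432). Cflar, an inhibitor of caspase activation, rose from 10.65, 10.34, 9.95 and 10.27 to 12.09, 12.11, 12.19 and 12.41 at 8 h. The rise was by 1.90 ± 0.14 (adjusted p = 3.58e-13), and 3 other probe sets rose by 1.42 to 2.47. At 24 h Cflar was higher by 0.40, a call lost without day 2 (adjusted p = 0.0738), day 3 (0.395), day 4 (0.0932) or the 4 arrays (0.490), and at 48 h by 1.64 ± 0.14 (adjusted p = 3.33e-12). Birc3, an inhibitor of apoptosis that binds TRAF proteins, rose by 0.77 ± 0.13 at 8 h (adjusted p = 3.27e-05) and was higher still at 48 h (adjusted p = 1.86e-11), when its arrays stood between 12.62 and 13.06. The 8 h call was lost with the mean of its 2 probe sets (adjusted p = 0.297), of which only 1 passed the filter. Birc2, its close relative, was not called before 36 h and stood at 12.50, 12.63, 12.35 and 12.23 at 48 h, against 11.01, 10.81, 11.25 and 11.11 in untreated cells. It was higher there by 1.38 ± 0.12 (adjusted p = 2.65e-11).

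Among the target genes, Il1rn, the antagonist of the interleukin 1 receptor, stood at 6.13, 5.80, 5.59 and 5.63 in untreated cells and at 9.68, 9.99, 9.94 and 10.23 at 8 h. The untreated mean of Il1rn (5.79) lies below the filter level of 6.21, so the gene passed the filter only through other groups, and the difference of 4.17 at 8 h is given as a description. At 24 h Il1rn stood between 7.41 and 8.70, still above all untreated arrays. Ptgs2, the inducible enzyme of prostaglandin synthesis, went from 6.52, 5.60, 5.68 and 5.76 to 9.18, 9.13, 9.63 and 10.02 at 8 h. Its untreated mean (5.89) also lies below the filter level, and the differences, 3.60 at 8 h and between 2.71 and 3.38 at the later times, are likewise a description. Icam1, an adhesion molecule, rose by 0.52 ± 0.08 at 8 h (adjusted p = 4.93e-06) and by 1.38 ± 0.08 at 48 h (adjusted p = 3.26e-16). Cd83, a membrane protein of activated lymphocytes and dendritic cells, fell from 12.16, 12.29, 12.10 and 12.22 to 9.84, 9.48, 9.80 and 9.69 at 24 h. It was lower by -2.49 ± 0.17 (adjusted p = 1.42e-13) there, by -1.33 at 8 h and by -0.96 at 48 h. Il1b, the interleukin 1 beta gene, stayed between 6.09 and 7.78 on all vehicle arrays and gave no call, and Il12a, the interleukin 12 subunit p35, was higher by 0.70 at 8 h (adjusted p = 0.0285), a call lost without any 1 day (adjusted p from 0.0531 to 0.128) or the 4 arrays that stood apart (0.434).

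**Figure D2:**
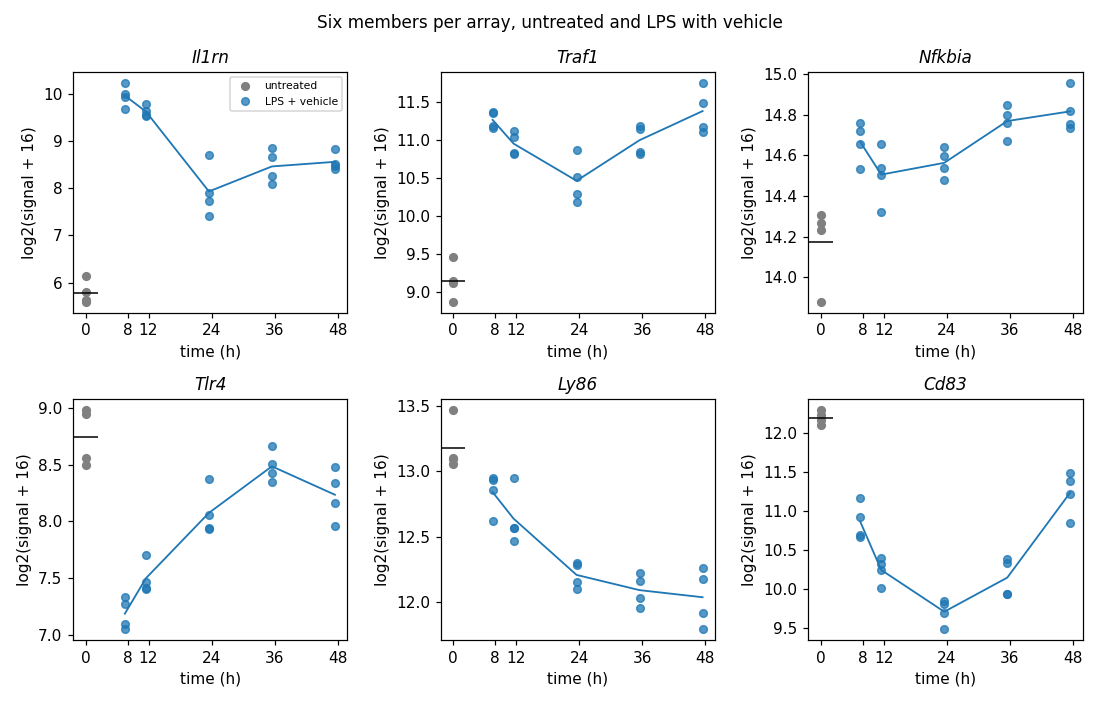
Level of 6 members as log2(signal + 16) on each untreated (grey) and vehicle (blue) array against time in h; each point is 1 array, with 4 per group, lines join the vehicle means and a bar marks the untreated mean. Il1rn, Traf1 and Nfkbia lie above the untreated arrays at all times, while Tlr4 is lowest at 8 h, Cd83 at 24 h and Ly86 at 48 h.

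Vehicle cells at 48 h were also compared with those at 8 h, without the untreated arrays. Here 24 of 42 members were called (46.7% of all genes), 14 higher (26% of all genes) and 10 lower (20.7%). Birc2 was higher at 48 h by 1.40 ± 0.12 (adjusted p = 1.50e-11), Ikbke by 1.56 ± 0.27 (adjusted p = 1.25e-05), Ticam1 by 1.25 ± 0.20 (adjusted p = 2.35e-06), Tlr4 by 1.05 ± 0.14 (adjusted p = 2.02e-07) and Irak2 by 1.03 ± 0.16 (adjusted p = 2.28e-06). Il1rn was lower by -1.40 ± 0.20 (adjusted p = 3.02e-07), Tlr1 by -1.33 ± 0.17 (adjusted p = 4.93e-08) and Myd88 by -1.19 ± 0.11 (adjusted p = 7.16e-11). Tlr4 thus fell early and partly returned, whereas Il1rn rose early and was lower later, and Birc2 and Ikbke rose late.

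The second comparison asks what TCDD changed in LPS-activated cells at a matched time. The vehicle arrays of each time also enter the vehicle comparisons above, so the values of both are set side by side without a test of their relation. At 8 h, 4 of 42 members were called, where 3.48% of all genes tested were, and all 4 were higher (2.40% of all genes). With the day as a block there were 9, 6 higher and 3 lower (Traf1, Nfkbie and Tnfaip3), where 6.83% of all genes were called. At 12 h 8 were called (7.86% of all genes), 5 higher (5.36%) and 3 lower (2.51%). At 24 h 9 were called (6.27%), 7 higher (4.24%) and 2 lower (2.04%), and at 36 h 9 (4.87%), 6 higher (3.06%) and 3 lower (1.81%). The count was greatest at 48 h, when 17 were called (7.59% of all genes), 5 higher (3.73%) and 12 lower (3.85%). Without day 2 the 48 h calls were 4 higher and 4 lower, and without day 3 they were 4 higher and 5 lower, so lower calls no longer exceeded higher ones to that degree. At 36 h the fit with the day as a block gave 6 higher and 7 lower (9.17% of all genes called). Without day 2 or day 3, 0 members were lower at 12 h. The median difference of the members lay between -0.05 and 0.07 at each time, and that of all genes between -0.02 and 0.01. Irak3 and Ptgs2 were higher at all 5 times, a pattern of 0.702% of all genes, and 0 were lower at all 5. In all, 8 members were higher at some time and never lower (9.27% of all genes). Another 13 were lower at some time and never higher (7.32%), and 21 gave no call (82.9%).

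**Figure D3:**
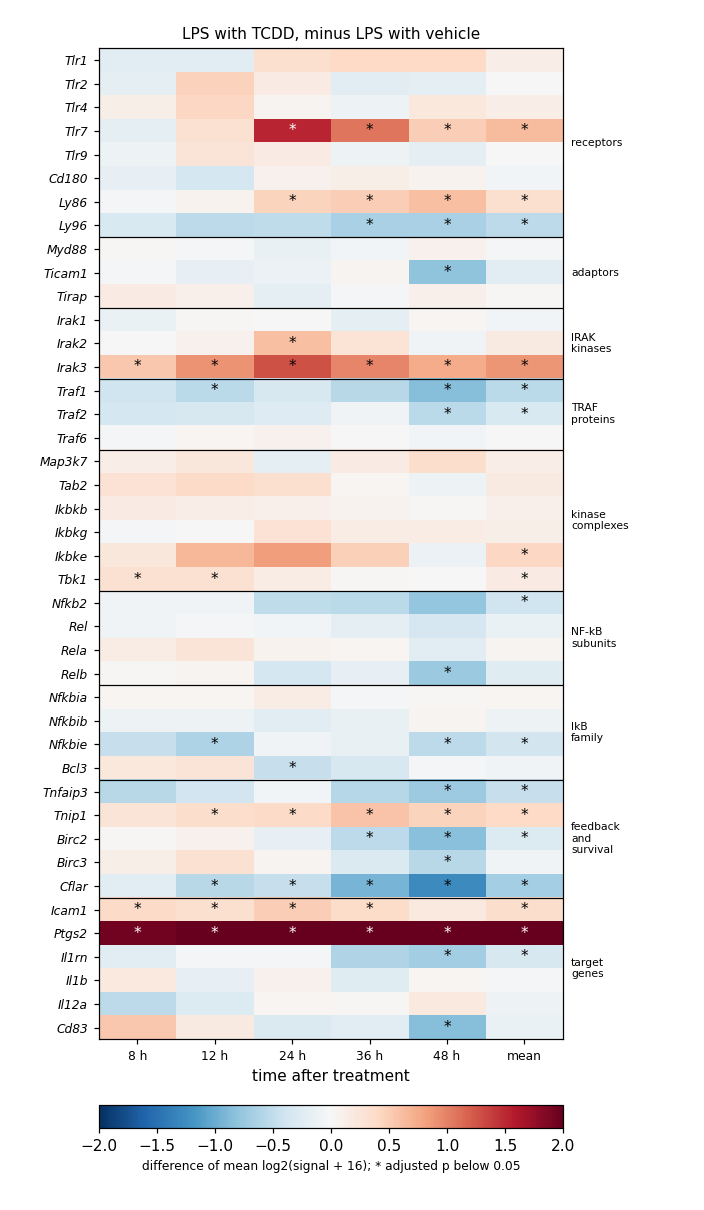
Difference of TCDD minus vehicle means for the 42 tested members (rows, ordered by role) at 5 times and averaged over them (columns), on the scale of log2(signal + 16), with 4 arrays per group. Colour stops at 2 in either direction, and a star marks an adjusted p below 0.05. Ptgs2 and Irak3 are red in every column, and the block of feedback and survival genes at 48 h is blue except for Tnip1.

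The summed signal of the macrophage and myeloid markers was higher with TCDD, without overlap at 8, 12, 24 and 36 h. This sum over 8 measured genes, 5 of which passed the filter, ran from 2887 to 3313 in TCDD arrays and from 1811 to 2165 in vehicle arrays at 8 h. The ranges were 3115 to 3475 against 1670 to 1876 at 12 h, 2532 to 2978 against 1333 to 1524 at 24 h, 2339 to 2628 against 1532 to 1764 at 36 h and 2446 to 2851 against 2177 to 2687 at 48 h. Of the defining myeloid genes, Lyz2, Itgam and Elane were below the filter in every group, while Csf1r, Cd68 and Adgre1 were above it. Mpo and Cd14 passed it narrowly, with highest group means of 6.49 and 6.62. The sum thus rests mostly on Csf1r (group means from 7.65 to 10.64), Cd68 (9.43 to 10.67) and Adgre1 (7.31 to 9.21). The summed B cell markers overlapped between TCDD and vehicle at all 5 times. The part of these markers in the results below was not tested.

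Of the receptors, Tlr7 and Ly86 were higher with TCDD and Ly96 was lower. Tlr7 stood at 9.52, 9.56, 9.78 and 9.81 in TCDD cells at 24 h and at 8.20, 7.94, 8.28 and 8.13 in vehicle cells. No TCDD array reached down to a vehicle array, and the TCDD arrays lay near the untreated ones, which ran from 9.12 to 9.67. The difference was 1.53 ± 0.13 (adjusted p = 1.80e-10), or 2.88-fold, at 24 h and 1.07 ± 0.13 (adjusted p = 7.91e-07) at 36 h. At 48 h it was 0.48 (adjusted p = 0.0209), a call lost without day 1 (0.0704), day 3 (0.168) or day 4 (0.112). Other probe sets of Tlr7 differed by 1.15 and 0.97 at 24 h, both called, and by 0.42 and -0.02 at 48 h. At 8 and 12 h Tlr7 differed by -0.18 and 0.31 without a call, and the change of the TCDD effect with time was called (F test of 4 interaction contrasts, adjusted p = 1.46e-06), though not on the other probe sets (adjusted p = 0.0631 and 0.315).

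Ly86 at 48 h stood at 12.67, 12.61, 12.88 and 12.41 with TCDD and at 12.17, 11.79, 12.26 and 11.92 with vehicle. All TCDD arrays were higher than all vehicle arrays. The difference was 0.60 ± 0.11 (adjusted p = 0.000627), and it was 0.44 at 24 h and 0.49 at 36 h. The 24 and 36 h calls were lost without day 1 (adjusted p = 0.146 and 0.131), day 2 (0.0982 and 0.125) or day 3 (0.0725 and 0.0612). Ly96, which holds LPS against Tlr4, was lower with TCDD in 20 of 20 same-day pairs, by a mean of -0.53 ± 0.08 over the 5 times (adjusted p = 3.77e-06). At 36 h it stood at 8.15, 7.74, 7.71 and 8.14 against 8.64, 8.55, 8.37 and 8.78 with vehicle. The difference was -0.65 ± 0.18 at 36 h (adjusted p = 0.0301) and at 48 h (adjusted p = 0.0208). These calls were lost without single days (at 36 h without days 2, 3 or 4, adjusted p from 0.0716 to 0.343, and at 48 h without any 1 day, from 0.0641 to 0.153), whereas with the day as a block Ly96 was also called at 12 h (-0.52, adjusted p = 0.00313) and 24 h (-0.51, adjusted p = 0.00423). Tlr4 gave no call, with differences between -0.10 and 0.41.

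Irak3 was the 1 IRAK gene called at all 5 times. At 24 h it stood at 9.62, 9.52, 9.93 and 9.62 with TCDD and at 8.45, 8.23, 8.55 and 8.37 with vehicle. The TCDD arrays were higher than the vehicle arrays of the same day in 20 of 20 pairs over the 5 times. The differences were 0.54, 0.90, 1.27, 0.97 and 0.74 (each ± 0.14) at 8, 12, 24, 36 and 48 h, and their mean was 0.88 ± 0.06 (adjusted p = 1.16e-13), or 1.84-fold. The 8 h call (adjusted p = 0.0267) was lost without day 1 (0.323), day 2 (0.436) or day 3 (0.112). Another probe set of Irak3 gave a mean of 0.81 (adjusted p = 2.01e-09). Irak2 was higher by 0.61 ± 0.16 at 24 h only (adjusted p = 0.0193), a call lost without day 2 (0.299), day 3 (0.0757) or day 4 (0.0609). Of the adaptors, Ticam1 was lower at 48 h, by -0.81 ± 0.20 (adjusted p = 0.00874), a call lost without day 2 (0.182) or day 3 (0.0965), and Myd88 and Tirap gave no call.

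Traf1 was lower with TCDD in 20 of 20 same-day pairs. It stood at 10.76, 10.77, 10.21 and 10.35 at 48 h with TCDD and at 11.49, 11.75, 11.17 and 11.11 with vehicle. The groups did not overlap, and the difference of -0.86 ± 0.16 (adjusted p = 0.000656) compares with the rise by 2.24 that vehicle cells showed against untreated cells at that time. At 12 h Traf1 was lower by -0.54 (adjusted p = 0.0412), a call lost without any 1 day (adjusted p from 0.0658 to 0.213), though another probe set gave -0.72 (adjusted p = 0.00114). With the day as a block it was called at 8 h (-0.40, adjusted p = 0.0121), 24 h (-0.31, 0.0450) and 36 h (-0.55, 0.000335) as well. The mean over the 5 times was -0.53 ± 0.07 (adjusted p = 7.16e-07). Traf2 was lower by a mean of -0.31 ± 0.06 (lower in 18 of 20 pairs, adjusted p = 0.000200). Its single call at 48 h (-0.54, adjusted p = 0.00959), where the groups overlapped, was lost without day 1 (0.209), day 2 (0.0840), day 3 (0.0535) or the 4 arrays that stood apart (0.0673).

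In the kinase complexes, Tbk1 stood at 11.79, 11.79, 11.82 and 11.73 at 8 h with TCDD and at 11.58, 11.47, 11.44 and 11.44 with vehicle. It was higher in all 4 pairs, by 0.30 ± 0.08 (adjusted p = 0.0227), and by 0.31 at 12 h (adjusted p = 0.00945). The 8 h call was lost without day 2 (0.253), day 3 (0.245) or day 4 (0.126), the 12 h call without day 2 (0.107) or day 4 (0.265), and another probe set gave no call. Ikbke was called at no single time (24 h with the day as a block, 0.84, adjusted p = 0.0334) but in the mean over the 5 times, at 0.41 ± 0.12 (higher in 14 of 20 pairs, adjusted p = 0.0155), a call lost without day 1 (0.135) or day 3 (0.0666). The other kinase genes gave no call. The block by day gave calls for Tab2 at 12 h (0.38, adjusted p = 0.00350) and 24 h (0.31, adjusted p = 0.0195) and for Map3k7 at 48 h (0.35, adjusted p = 0.0181).

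The NF-kB subunits were called in 1 case at a single time, where 82.9% of all genes gave no call at any time. Relb at 48 h stood at 8.31, 8.41, 8.32 and 8.27 with TCDD and at 8.78, 9.80, 8.96 and 8.72 with vehicle. The TCDD arrays lay lower and close together, and the highest vehicle array was DMSO 48 h replicate 2, one of those that stood apart. The difference of -0.74 ± 0.19 (adjusted p = 0.0127) was lost without day 2 (-0.52, adjusted p = 0.303), without day 3 (0.0557) and without the 4 arrays that stood apart (0.0664). Nfkb2, whose product pairs with Relb, was lower by a mean of -0.39 ± 0.11 (lower in 16 of 20 pairs, adjusted p = 0.0147), a call lost without day 2 (0.105), day 3 (0.0958) or day 4 (0.0860). Rela and Rel gave no call in this fit, while with the day as a block Rel at 48 h (-0.33, adjusted p = 0.0468), Nfkb2 at 48 h (-0.77, 0.0122) and Rela at 12 h (0.25, 0.0352) were called.

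Of the IkB family, Nfkbie was lower with TCDD at 12 h, where it stood at 10.90, 10.54, 10.45 and 10.62 against 11.37, 11.10, 11.24 and 11.25 with vehicle. The groups did not overlap. The difference was -0.61 ± 0.15 (adjusted p = 0.00773), and it was -0.45 at 8 h (adjusted p = 0.111, and 0.0110 with the day as a block) and -0.52 at 48 h (adjusted p = 0.0273). The 12 h call was lost without day 2 (0.0707) or day 3 (0.148), and the 48 h call without day 1 (0.0723), day 2 (0.209), day 3 (0.128) or the 4 arrays (0.110). Another probe set of Nfkbie was called at all 3 of these times (-0.48, -0.67 and -0.47, adjusted p = 0.00633, 5.08e-05 and 0.00454). Bcl3 was called lower at 24 h, at 10.06, 10.56, 10.54 and 10.47 against 10.80, 11.01, 10.81 and 10.85, a difference of -0.46 ± 0.11 (adjusted p = 0.00619, and 0.0689 without day 4). At 8 and 12 h it differed by 0.22 and 0.26 (12 h called with the day as a block, adjusted p = 0.0310), at 36 h by -0.32 (0.00879 with the block), and the change of its TCDD effect with time was called (adjusted p = 0.00444, and 0.0502, 0.118 and 0.135 without days 2, 3 and 4). Nfkbia gave no call, with differences between -0.03 and 0.15.

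Feedback and survival genes were called in 5 of 5 cases at 48 h (7.59% of all genes), 4 lower (3.85%) and 1 higher (3.73%). Cflar stood at 10.81, 10.79, 10.47 and 10.63 with TCDD and at 12.20, 11.75, 11.82 and 12.01 with vehicle at 48 h. All TCDD arrays lay below all vehicle arrays, by -1.27 ± 0.14 (adjusted p = 3.09e-08), or 2.42-fold. The differences at 8, 12, 24 and 36 h were -0.21, -0.55, -0.46 and -0.93, called from 12 h on, and Cflar was lower in 20 of 20 same-day pairs. The 12 and 24 h calls were lost without day 2 (adjusted p = 0.0849 and 0.203), day 3 (0.0794 and 0.304) or day 4 (0.0776 and 0.192). Other probe sets of Cflar gave smaller differences: 2 of 3 were called at 48 h (-0.87 and -0.74, the third -0.37), and at 36 h the 3 stood at -0.35, -0.37 and 0.03 without a call. The change of the TCDD effect with time was called on the brightest probe set (adjusted p = 0.00233, and from 0.0505 to 0.0725 without day 2, 3 or 4) and on no other.

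Birc2 stood at 11.62, 11.64, 11.59 and 11.54 at 48 h with TCDD and at 12.50, 12.63, 12.35 and 12.23 with vehicle. The late rise seen in vehicle cells was smaller in TCDD cells, by -0.52 ± 0.12 at 36 h (adjusted p = 0.00998) and -0.83 ± 0.12 at 48 h (adjusted p = 1.97e-05). The 36 h call was lost without day 2 (0.0619), day 3 (0.125) or day 4 (0.0732). The differences at 8, 12 and 24 h were 0.02, 0.09 and -0.16, and the change with time was called (adjusted p = 0.00201, and 0.113 without day 2 and 0.0561 without day 3). Birc3 was lower at 48 h, at 12.42, 12.34, 12.57 and 12.05 against 13.06, 13.04, 12.89 and 12.62. The difference was -0.56 ± 0.13 (adjusted p = 0.00691), a call lost without day 1 (0.0843) or day 2 (0.101). It was also lost with the mean of the 2 Birc3 probe sets (0.642), of which only 1 passed the filter. Tnfaip3 was lower at 48 h, at 11.41, 11.31, 11.27 and 11.07 against 12.09, 11.91, 12.03 and 11.90, a difference of -0.72 ± 0.20 (adjusted p = 0.0214). That call was lost without any 1 day (adjusted p from 0.0504 to 0.132). The mean over the 5 times was -0.46 ± 0.09 (lower in 19 of 20 pairs, adjusted p = 0.000207), and with the day as a block Tnfaip3 was also called at 8 h (-0.55, adjusted p = 0.0375) and 36 h (-0.57, 0.0252).

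Tnip1, a partner of Tnfaip3 that likewise restrains NF-kB, went the other way. At 36 h it stood at 12.20, 12.28, 12.21 and 12.13 with TCDD and at 11.53, 11.72, 11.67 and 11.64 with vehicle. The groups did not overlap, and TCDD arrays were higher in 20 of 20 same-day pairs. The differences were 0.35, 0.39, 0.57 and 0.45 (each ± 0.09) at 12, 24, 36 and 48 h, with a mean of 0.40 ± 0.04 over the 5 times (adjusted p = 2.14e-09). Without day 2 the calls at 12, 24 and 48 h were lost (adjusted p = 0.245, 0.166 and 0.0633), without day 3 that at 24 h (0.0705), and without day 4 those at 12 and 24 h (0.134 and 0.0627). At 8 h the difference was 0.26 (adjusted p = 0.191, and 0.0261 with the day as a block).

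Among the target genes, Ptgs2 showed the largest TCDD difference of any member. At 8 h it stood at 11.33, 11.28, 11.45 and 11.63 with TCDD and at 9.18, 9.13, 9.63 and 10.02 with vehicle, and at 48 h at 12.60, 12.25, 11.56 and 11.52 against 9.63, 9.28, 9.08 and 8.81. All TCDD arrays lay above all vehicle arrays at each of the 5 times. The differences were 1.93, 2.29, 2.95, 2.56 and 2.78 (each ± 0.27) at 8, 12, 24, 36 and 48 h, and the mean was 2.50 ± 0.12 (adjusted p = 1.81e-18), or 5.66-fold. Another probe set gave a mean of 2.23 (adjusted p = 1.11e-14), and the change of the effect with time was not called (adjusted p = 0.422). Icam1 was higher by 0.38, 0.32, 0.49 and 0.36 (each ± 0.08) at 8, 12, 24 and 36 h, and at 24 h it stood at 11.90, 11.78, 11.80 and 11.74 against 11.31, 11.31, 11.34 and 11.28. Values did not overlap at these 4 times, and Icam1 was higher in 20 of 20 same-day pairs (mean 0.35 ± 0.04, adjusted p = 9.29e-10). The 24 h call held without any 1 day, whereas those at 8, 12 and 36 h were lost without at least 1 (8 h without days 3 or 4, adjusted p = 0.0683 and 0.0582; 12 h without days 1, 3 or 4, from 0.0538 to 0.121; 36 h without day 1, 0.143).

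Il1rn and Cd83 were lower with TCDD at 48 h. Cd83 stood at 10.38, 10.20, 10.53 and 10.41 with TCDD and at 11.49, 11.22, 11.39 and 10.84 with vehicle, a difference of -0.86 ± 0.17 (adjusted p = 0.00137). At 8 h its difference had the other sign, with 11.38, 11.44, 11.49 and 11.33 against 10.69, 10.67, 11.17 and 10.92, or 0.55 ± 0.17 (adjusted p = 0.0998, and 0.0241 with the day as a block). All 4 TCDD arrays lay above the vehicle arrays at 8 h and below them at 48 h. The change of the Cd83 effect with time was called (adjusted p = 0.00296, and 0.191 without day 2 and 0.0659 without day 3). Il1rn at 48 h stood at 7.93, 7.83, 7.89 and 7.79 against 8.52, 8.41, 8.83 and 8.47, a difference of -0.70 ± 0.20 (adjusted p = 0.0254). This call was lost without day 2 (0.115), day 3 (0.222) or day 4 (0.101), and other probe sets of Il1rn gave -0.41 and -0.29 without a call. Il1b and Il12a gave no call.

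**Figure D4:**
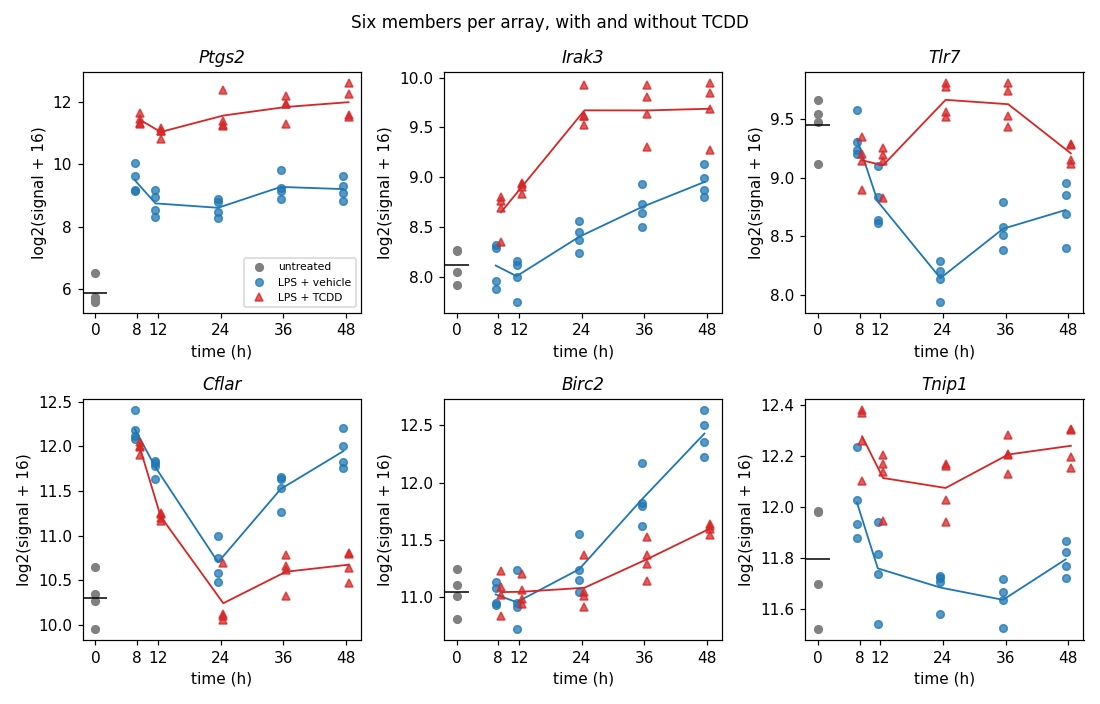
Level of 6 members as log2(signal + 16) on each untreated (grey circles), vehicle (blue circles) and TCDD (red triangles) array against time in h; each point is 1 array, with 4 per group, and lines join the means. Ptgs2, Irak3 and Tnip1 lie higher with TCDD, Tlr7 parts from vehicle at 24 h, and Cflar and Birc2 rise less late in culture.

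Averaged over the 5 times with 20 arrays on each side, 17 of 42 members were called (19.2% of all genes), 8 higher (10.3%) and 9 lower (8.91%). The higher ones were Ptgs2, Irak3, Tlr7, Ikbke, Tnip1, Icam1, Ly86 and Tbk1, and the lower ones Cflar, Traf1, Ly96, Tnfaip3, Nfkb2, Nfkbie, Il1rn, Traf2 and Birc2. Calls of this mean were lost without a single day for Ikbke and Nfkb2, as given above, and for Il1rn (-0.31, adjusted p = 0.0110, and 0.185 without day 3). Of the 7 higher members in the promoter table, 1 has a kB match and 3 have a GCGTG within 250 bases before a start site, and of the 8 lower members 3 and 7 do. Of all 40 members with an entry, 25% have a kB match and 47.5% a GCGTG, and among all genes 8.23% and 30.9%. A gene is counted when any of its windows holds a match, and a gene with several start sites has several windows. Tnfaip3, Nfkb2, Il1rn and Birc2 of the lower members have several, and of the higher ones only Irak3 does. The difference between higher and lower members was not tested. The TCDD effect changed with time in 7 of 42 members, where 5.36% of all genes were called: Tlr7, Ly86, Bcl3, Birc2, Birc3, Cflar and Cd83. That of Ly86 (adjusted p = 0.0296) was lost without any 1 day (from 0.0752 to 0.307), and that of Birc3 (0.0158) without day 1 (0.239), day 2 (0.318) or day 4 (0.0729). With the day as a block there were 11 (13.1% of all genes), with Irak3 (adjusted p = 0.0343), Tab2 (0.0247), Tbk1 (0.0458) and Rela (0.0291) in addition. Without day 2 the count was 1, without day 3 it was 2 and without day 4 it was 3.

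**Figure D5:**
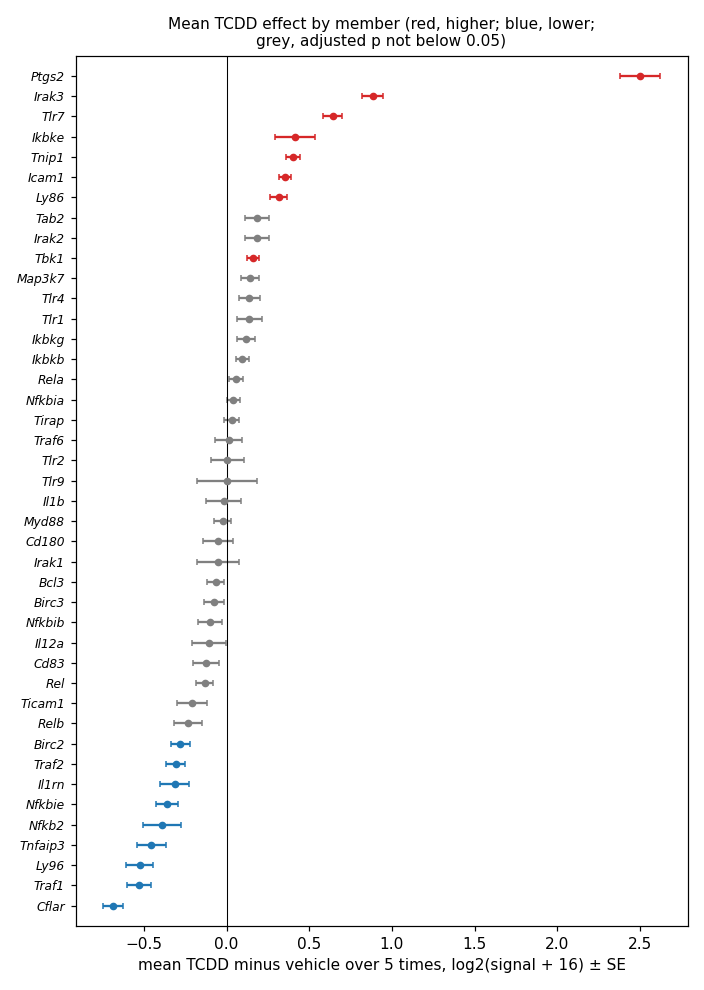
TCDD minus vehicle averaged over 5 times for each of the 42 tested members, on the scale of log2(signal + 16), with bars of 1 standard error and 20 arrays on each side. Red points are called higher (8), blue points called lower (9) and grey points not called, and Ptgs2 at 2.50 lies far from the rest.

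Other genes of the pathway that are no members were read from a list of 48 symbols, of which 38 were tested. At 8 h of vehicle 15 (39.5%, against 23.3% of all genes) were called against untreated cells, 10 higher and 5 lower. The largest differences upward were those of the cytokine Il6 (4.79), the ribonuclease Zc3h12a (3.93 ± 0.18) and the nuclear IkB protein Nfkbiz (2.86 ± 0.15). The largest falls were those of Ltb, a member of the tumour necrosis factor family (-1.78 ± 0.28), and of Malt1 (-0.98 ± 0.15) and Bcl10 (-0.84 ± 0.07), which carry antigen receptor signals to NF-kB. At 48 h 16 were called (42.1%, against 42.4% of all genes), 12 higher, led by Il6 (6.09), the chemokine Ccl5 (4.92) and the kinase Map3k8 (3.45 ± 0.25), and 4 lower, led by Ltb (-3.69 ± 0.28), Unc93b1 (-0.34 ± 0.12) and Irf5 (-0.26 ± 0.09). The untreated means of Il6 (5.01) and Ccl5 (5.58) lie below the filter level, so their differences from untreated cells are descriptions. In the mean TCDD effect 13 of the 38 were called, 9 higher and 4 lower (34.2%, against 19.2% of all genes). Irf7, a transcription factor of the interferon response downstream of Tlr7, was higher by 1.12 ± 0.11 (20 of 20 pairs, adjusted p = 3.95e-10), Tlr6 by 0.45 ± 0.08 (adjusted p = 6.03e-05) and Zc3h12a by 0.43 ± 0.08 (adjusted p = 0.000119). Il6 was lower by -1.01 ± 0.13 (19 of 20 pairs, adjusted p = 3.10e-07), Ccl5 by -0.82 ± 0.19 (adjusted p = 0.00220) and Map3k8 by -0.51 ± 0.11 (adjusted p = 0.000911). At single times the TCDD counts of the 38 were 3 at 8 h (7.89%, against 3.48% of all genes), 4 at 12 h (10.5% against 7.86%), 6 at 24 h (15.8% against 6.27%), 3 at 36 h (7.89% against 4.87%) and 1 at 48 h (2.63% against 7.59%).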

How the data were processed

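RNA of 44 CH12.LX samples was hybridised to Affymetrix Mouse430_2 arrays. The authors deposited linear signal intensities from GCOS 1.0, per the submitters' processing notes, and in them each array's mean without the lowest and highest 2% was 500. Here all arrays were quantile normalized and log2(signal + 16) was taken. A probe set was kept if it exceeded the overall median (6.21) in the mean of at least 1 group, which left 25236 of 45037. Limma 3.58.1 (R 4.3.3) fitted 11 group means to 44 arrays with moderated variances, and p-values were adjusted by Benjamini-Hochberg over all kept probe sets, at 0.05. Tests were two-sided, and the code was tested on simulated data. A gene stands by its brightest single-symbol probe set: 34945 probe sets have 1 gene symbol, 932 several and 9160 none in the platform annotation. The number of arrays limits the precision. Figures used matplotlib 3.10.9 (Python 3.11.15).

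The members, lists and tests were chosen with earlier results of these data known. Values are given for members called in a TCDD comparison and for up to 3 per role with the largest called vehicle change at 8 or 48 h. Other pathway genes are named for up to 3 per direction. Per the series' design text, replicates were run on separate days, so the numbers were read as pairing the samples by day. Between arrays of different groups, deviations from group means correlated by a median of 0.17 for the same number and -0.06 for different numbers. Of the 20 pairs of TCDD and vehicle arrays with the same number and time, 18 exceeded 0.1. The day as a block, normalization, filter, offset, probe set choice and left-out days were tried as alternatives. Leaving out the 4 arrays that stood apart was added after seeing the data.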

Additional observations from a re-analysis of the deposited data

Results flagged for a closer look

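For the 42 tested members, 462 groups of 4 arrays were examined for 1 array far from the rest, and 21 held one (Dixon's test at 0.829 of the range), where chance gives about 1 in 20. On the scale of log2(signal + 16), these were Tlr2 (TCDD 48 h replicate 3, 8.56), Tlr4 (TCDD 8 h replicate 3, 6.75 and TCDD 12 h replicate 4, 8.17), Cd180 (DMSO 48 h replicate 1, 7.86), Ly86 (untreated 0 h replicate 4, 13.47), Irak1 (TCDD 36 h replicate 4, 10.16), Traf6 (untreated 0 h replicate 4, 7.74), Ikbkb (TCDD 8 h replicate 1, 10.46), Nfkb2 (TCDD 8 h replicate 1, 8.81 and TCDD 24 h replicate 4, 8.82), Rel (TCDD 12 h replicate 3, 9.74 and TCDD 48 h replicate 4, 9.23), Nfkbia (TCDD 24 h replicate 2, 14.57 and TCDD 36 h replicate 4, 14.63), Tnfaip3 (DMSO 8 h replicate 3, 11.35 and DMSO 36 h replicate 4, 11.15), Tnip1 (DMSO 24 h replicate 1, 11.58), Birc3 (TCDD 36 h replicate 4, 11.85), Cflar (TCDD 24 h replicate 1, 10.69), Ptgs2 (TCDD 24 h replicate 1, 12.37) and Il12a (untreated 0 h replicate 3, 5.80). The TCDD effect differed between times, by limma's F test of 4 interaction contrasts, for Tlr7 (adjusted p = 1.46e-06), Ly86 (0.0296), Bcl3 (0.00444), Birc2 (0.00201), Birc3 (0.0158), Cflar (0.00233) and Cd83 (0.00296).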

How the results depend on the processing

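In all, 205 calls of single members were each recomputed under up to 16 alternatives (3276 values). Of these values 2947 kept the call, 327 lost it without turning and 2 turned in direction. Among the 205 are the 7 calls of the change with time, which have no direction and could only be kept or lost. Both that turned were Ikbkb with the mean of its probe sets, at 12 h (0.0192) and 36 h (0.00844) of vehicle, where the probe sets differ among themselves. With the day as a replicate block all 205 calls held and counts rose: TCDD at 8 h gave 9 (also 9 with a random block) and the change with time 11, against 4 and 7. Fitting only the arrays compared, which leaves fewer samples, gave 12 and 9 at 8 and 12 h of vehicle, and 2, 3, 5, 5 and 6 for TCDD at 8, 12, 24, 36 and 48 h. With no filter, and so more probe sets tested, TCDD at 8 h gave 2. Leaving out 1 day gave 13 to 16 at 8 h of vehicle, 1 to 3, 3 to 6, 5 to 9, 6 to 7 and 8 to 13 for TCDD at 8, 12, 24, 36 and 48 h, and 1 to 5 for the change with time. All other totals of called members lay within 1.5 times of those reported, whereas counts by direction moved more: lower calls at 8 h of vehicle ranged from 2 to 6 without 1 day, those of TCDD at 12 h from 0 to 2, at 36 h from 1 to 3 (7 with the block) and at 48 h from 4 to 9. Signal over background was judged by the filter alone, below which Il12b was not tested.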
